A study of Mus musculus with 12 samples.

Results

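Reads of 7 orphan nuclear receptor genes, Nr2f1, Nr2f2, Nr2f6, Nr5a1, Nr5a2, Nr6a1 and Esrrb, were followed through the exit of P19 cells from pluripotency. The genes were listed by name, as receptors known from pluripotent cells or from the response to retinoic acid, with earlier results of these data known. All reads that passed the authors' quality tag, were classed as mRNA and carried one of these gene names were taken, 1138 of 4274320 kept reads and 7 of 14042 genes with a read. P19 is a wild-type mouse embryonal carcinoma line. The D0 libraries came from undifferentiated cells in serum medium, and the D2, D4 and D6 libraries from cells held for 2, 4 or 6 days in NDiff 227 medium with 500 nM retinoic acid on poly-L-lysine. Each day had 3 libraries of poly(A) RNA, 12 in all, sequenced directly on nanopores, so that each read is a native RNA molecule with its tail. The study's methods describe the 3 as biological replicates that were barcoded and sequenced together.

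Orphan receptors are members of the nuclear receptor family, transcription factors with a zinc finger DNA-binding domain, for which no classical hormone was known when they were named. Many of them bind the hexamer AGGTCA, alone or repeated, and so can compete for the same DNA. Nr5a1 (SF-1), Nr5a2 (LRH-1) and Esrrb are known as activators of pluripotency genes. Nr2f1 (COUP-TFI), Nr2f2 (COUP-TFII) and Nr2f6 (EAR2), and Nr6a1 (GCNF), are known mostly as repressors, and Pou5f1, which encodes the pluripotency factor Oct4, is a target described for both kinds.

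Kept reads ranged from 120326 to 613756 per library, and D2 was the shallowest day, with a mean of 181932 ± 60407 (SD, n = 3). Each of the 13 sequencing runs held a single day, so run and day cannot be told apart. The names of the D0 runs carry the mark D2 and some D6 runs name no day, and libraries were placed by the sample labels and the library column of the deposited table. Pou5f1 had 664, 1027 and 782 reads in the D0 libraries, 4 reads over all of D2, 0 at D4 and 1 at D6. Tubb3, the neuronal tubulin, went from 140.5 ± 3.52 to 914.7 ± 106.4 CPM between D0 and D6 (SD, n = 3), with 62.0 ± 26.5 CPM at D2 and 461.0 ± 37.5 at D4, where CPM is counts per 1000000 scaled reads of the library. Of the 13 neuronal markers, which summed to 612.6 to 645.4 CPM per library at D0, 380.0 to 594.6 at D2, 2017 to 2298 at D4 and 3404 to 3672 at D6, 3 had no read at D0. The 9 neural progenitor markers summed to 471.5 to 531.6 CPM at D0, 736.3 to 968.2 at D2, 1151 to 1186 at D4 and 1393 to 1592 at D6. From D0 to D6 mean Fabp7 went from 3.43 to 556.5 CPM and Hes5 from 1.23 to 280.2, while Sox2 fell from 263.5 to 199.1. The other progenitor markers rose by less than Fabp7 and Hes5. Fabp7, Hes5 and Sox2 are named after their values were seen. Summed markers of endoderm stayed between 18.8 and 48.6 CPM per library over all days, those of glia between 0 and 41.0, and those of mesoderm and fibroblasts at or below 13.0. On a given day 5 to 7 of 10 endoderm, 5 to 9 of 9 mesoderm, 5 to 7 of 8 glia and 3 to 6 of 6 fibroblast markers had no read. The part of the changing cell mixture in the results was not tested, and in these bulk libraries fewer cells of a type and less RNA per cell cannot be told apart.

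2 promoters are shown, of the known target Pou5f1 and of the member Nr6a1, because both hold the hexamer that these receptors bind. They are windows of RefSeq on GRCm38.p6, from 250 bases before to 50 after a start site, 5′ to 3′ on the strand of the gene, with each AGGTCA or its reverse complement TGACCT in capitals. The window of Pou5f1 lies at chr17:35505782-35506081 on the plus strand and holds the hexamer 33 bases before the start site. The window of Nr6a1 lies at chr2:38784466-38784765 on the minus strand, at the start of the transcript ENSMUST00000168098.7, and holds the reverse complement 91 and 45 bases before the start site.
Pou5f1: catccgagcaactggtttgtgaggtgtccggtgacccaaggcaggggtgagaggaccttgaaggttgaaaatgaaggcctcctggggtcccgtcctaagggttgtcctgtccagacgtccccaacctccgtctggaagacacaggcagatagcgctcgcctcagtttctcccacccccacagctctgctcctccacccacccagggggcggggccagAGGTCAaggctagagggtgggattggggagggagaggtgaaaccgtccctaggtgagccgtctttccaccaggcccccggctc
Nr6a1: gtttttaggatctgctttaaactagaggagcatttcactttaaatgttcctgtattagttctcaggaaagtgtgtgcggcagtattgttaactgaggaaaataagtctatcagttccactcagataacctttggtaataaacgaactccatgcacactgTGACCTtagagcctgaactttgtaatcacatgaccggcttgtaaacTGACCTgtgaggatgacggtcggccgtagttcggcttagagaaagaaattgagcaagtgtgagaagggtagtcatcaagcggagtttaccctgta
AGGTCA occurred on either strand in 16.3% of 32851 promoter windows of the same length, so that a match is a common event. Among the members a further match stood 64 bases before a start site of Nr5a2, and no window of Nr2f1, Nr2f2, Nr2f6 or Esrrb held one. The other windows of Pou5f1 (chr17:35508557-35508856) and Nr6a1 (chr2:38926412-38926711) held none either. The Nr6a1 window that is shown belongs to its least-read transcript. Several windows lay away from the start of any transcript with reads, by up to 6153 bases for Nr2f2. No window of the members or of Pou5f1 held the extended form TCAAGGTCA (0.423% of all windows), nor the direct repeats AGGTCAAGGTCA with no spacer, AGGTCANAGGTCA with a spacer of 1 base, AGGTCANNAGGTCA with 2 or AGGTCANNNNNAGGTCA with 5. Only exact letters were searched, so that a site or repeat with a changed letter was not looked for. The set of windows held none for Nr5a1.

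The 5 members with enough reads for a test fell into 3 courses. Nr2f1, Nr2f2 and Nr2f6 rose by D2 and stayed up, Nr5a1 was lost by D2, and Nr6a1 was lower from D4 on. In the limma-voom fit over the 9309 genes with at least 30 reads, 5 of the 7 members were tested, and Nr5a2 (7 reads) and Esrrb (10 reads) were too rare. Nr5a1 reached that minimum through D0 alone, and Nr2f1 and Nr2f2 through D4 and D6, so that these members had to differ and the counts are a description. At D2 against D0, 4 of the 5 were called at an adjusted p of at most 0.05, against 10.7% of all genes tested. These were 3 members higher (4.48% of all genes were called higher) and 1 lower (6.23%). At D4 against D0 all 5 were called, where 25.3% of all genes were, 3 of them higher (12.5%) and 2 lower (12.9%). At D6 against D0 the same 5 were called in the same directions, where 37.6% of all genes were called, 19.4% higher and 18.2% lower. These splits depend on scaling. With unscaled library totals the median log2 fold change of all genes was 0.133, 0.124 and 0.261 at D2, D4 and D6, in place of -0.05, -0.01 and 0.01, and 720 of 1093, 1537 of 2458 and 2588 of 3750 calls were higher, in place of 417 of 997, 1159 of 2359 and 1806 of 3501. The members called and their directions were the same in these comparisons. The step from D2 to D4 called 2 members (3.01% of all genes), 1 higher (1.96%) and 1 lower (1.05%). The step from D4 to D6 called 0 of the 5 (8.35% of all genes, 4.47% higher and 3.88% lower) in limma. Without adjustment 1 member, Nr2f1, was under 0.05 in that step.

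**Figure D1:**
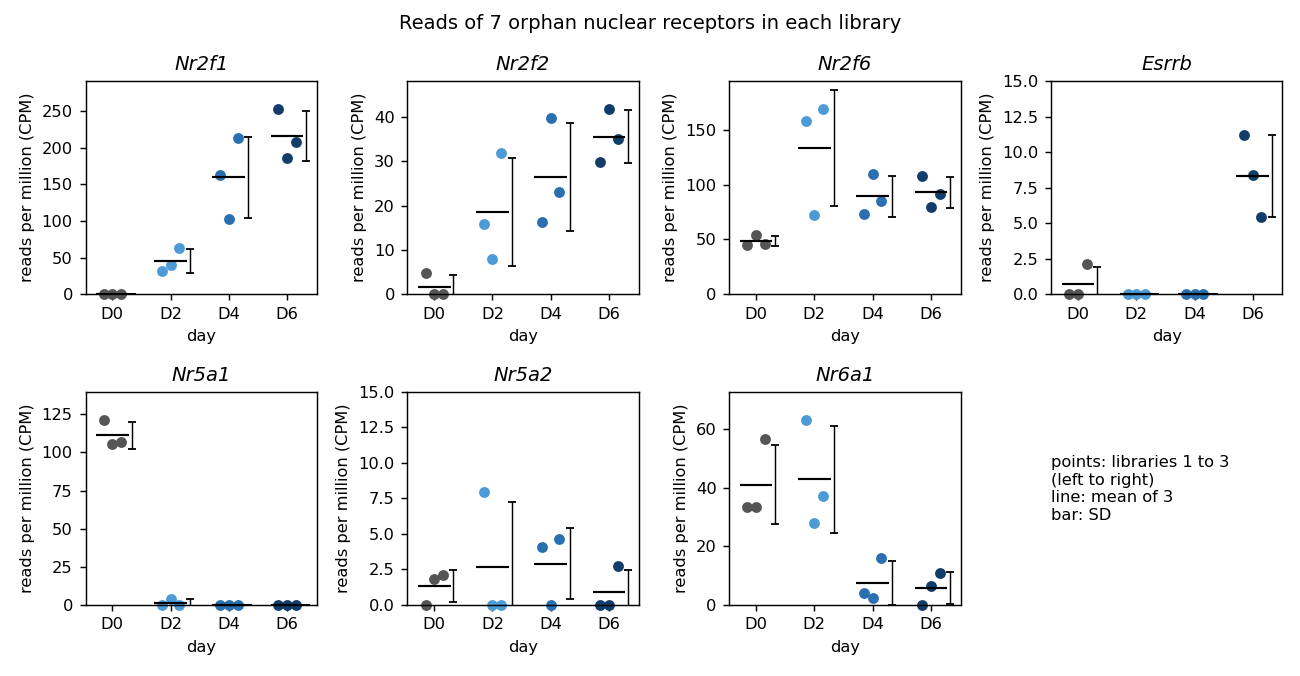
Level of each receptor gene (CPM, linear axis from 0, scale set per gene) in the 3 libraries of each day (points, libraries 1 to 3 from left to right), with the mean (line) and SD (bar). Nr2f1 climbs from 0 at D0 to between 186.1 and 253.5 CPM at D6, Nr5a1 sits between 105.5 and 121.6 CPM at D0 and at or near 0 afterwards, and Nr6a1 still has 28.1 to 63.3 CPM at D2.

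Nr2f1 encodes a repressor of the COUP-TF group that is needed for the patterning of the cortex and for neuronal differentiation. It had 0 reads in each D0 library, 4, 10 and 12 reads in the D2 libraries, 40, 44 and 93 at D4, and 68, 89 and 77 at D6. These were 31.7, 40.2 and 63.5 CPM at D2, 162.7, 103.2 and 214.2 at D4, and 253.5, 186.1 and 207.9 at D6. Every later library lay above every D0 library, D2 and D4 did not overlap, and D4 and D6 did. Set against a floor of 3 reads over the whole of D0 (2.09 CPM), Nr2f1 was at least 22.1-fold higher at D2, 76.6-fold at D4 and 100.4-fold at D6. The adjusted p was 5.7e-08, 4.3e-13 and 2.2e-14 in the same order. The rise from D2 to D4 had a log2 fold change of 1.70 ± 0.34 (SE, adjusted p = 0.000503, n = 3 libraries per day). The further 0.46 ± 0.18 from D4 to D6 did not pass (adjusted p = 0.115), but it did pass with unscaled library totals (0.58, adjusted p = 0.0334) and without D4 replicate 3 (0.71, adjusted p = 0.0164).

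Nr2f2, the other COUP-TF gene, is known for roles in vessels, mesenchyme and the caudal forebrain. It had 2, 0 and 0 reads at D0, 2, 2 and 6 at D2, 4, 17 and 10 at D4, and 8, 20 and 13 at D6. The range was 8.04 to 31.8 CPM at D2, 16.3 to 39.9 at D4 and 29.8 to 41.8 at D6, above the D0 libraries in each case but with the later days overlapping their neighbours. The ratio of pooled reads of D6 to D0 was 26.4, with an exact 95% interval from counting error of 6.85 to 225.1. The fitted log2 fold change was 3.32 ± 0.79 at D2 (adjusted p = 0.00193), 3.96 ± 0.71 at D4 (adjusted p = 1.1e-05) and 4.39 ± 0.69 at D6 (adjusted p = 4.2e-07). Both D0 reads were in replicate 1, and without it the fitted changes were 4.20, 4.84 and 5.24 and the pooled ratio had no D0 read. Without D2 replicate 2 the change at D2 was 3.97. Neither later step passed (D4 against D2, 0.64 ± 0.52, adjusted p = 0.605, and D6 against D4, 0.44 ± 0.37, adjusted p = 0.529).

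Nr2f6, the third gene of the group, is known as a repressor in lymphocytes and in the hindbrain. It was the only member with reads in all 12 libraries. It had 45.3, 53.7 and 46.1 CPM at D0, 158.4, 72.3 and 169.5 at D2, 73.2, 110.2 and 85.2 at D4, and 108.1, 79.5 and 91.8 at D6. All 9 later libraries exceeded the D0 libraries, D2 was the most variable day, and the later days overlapped. The log2 fold change against D0 was 1.26 ± 0.27 at D2 (adjusted p = 0.000527), 0.89 ± 0.25 at D4 (adjusted p = 0.00569) and 0.88 ± 0.25 at D6 (adjusted p = 0.00369). The call at D4 was lost without D4 replicate 2 (0.74, adjusted p = 0.0604), and with all libraries thinned to the smallest the log2 fold change was 0.96 at D4 (adjusted p = 0.209) and 1.11 at D6 (adjusted p = 0.0812).

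**Figure D2:**
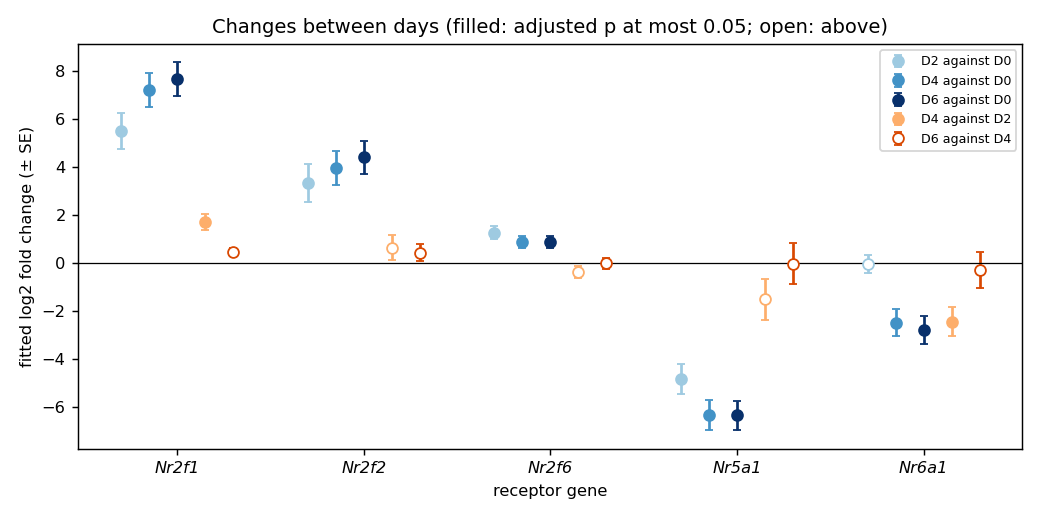
Fitted log2 fold change (± SE) of the 5 tested receptor genes between days, 3 libraries a day; filled points have an adjusted p of at most 0.05. The 3 Nr2f genes lie above 0 against D0, Nr5a1 and Nr6a1 below it at D4 and D6, and Nr6a1 is near 0 at D2 (-0.04).

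Nr5a1 encodes SF-1, known from steroid-producing tissue and, in embryonal carcinoma cells, as an activator of Pou5f1. It had 51, 57 and 51 reads at D0, or 121.6, 105.5 and 106.9 CPM, and a single read in the 9 later libraries, in D2 replicate 2. The D0 libraries did not overlap any later library. The ratio of D0 to D2 was 62.4, with an exact 95% interval from counting error of 11.0 to 2480, and Nr5a1 was at least 40.8-fold lower at D4 and 41.2-fold lower at D6 against the floor of 3 reads per day. The adjusted p for D2, D4 and D6 against D0 was 1.2e-08, 7.3e-13 and 3.7e-13. Nothing further could be seen after D2, since the floor at that day was 5.32 CPM.

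Nr6a1 encodes GCNF, which is known to repress Pou5f1 when pluripotent cells are given retinoic acid. It had 14, 18 and 27 reads at D0, 8, 7 and 7 at D2, 1, 1 and 7 at D4, and 0, 3 and 4 at D6. In CPM this was 33.4, 33.3 and 56.6 at D0, 63.3, 28.1 and 37.1 at D2, 4.07, 2.35 and 16.1 at D4, and 0, 6.27 and 10.8 at D6. D0 and D2 overlapped, and every library of D4 and D6 lay below them. The log2 fold change was -0.04 ± 0.38 at D2 (adjusted p = 0.969), -2.47 ± 0.55 at D4 (adjusted p = 0.000329) and -2.77 ± 0.59 at D6 (adjusted p = 0.000117). Single libraries moved the size of these falls, to -1.81 without D4 replicate 2 and -3.17 without D4 replicate 3 at D4, and to -2.15 without D6 replicate 1 and -3.39 without D6 replicate 3 at D6. The ratio of pooled reads of D2 to D0 was 0.95, with an exact 95% interval from counting error of 0.554 to 1.57. The fall from D2 to D4 was -2.43 ± 0.60 (adjusted p = 0.00743), and it lost its call without D2 replicate 1 (-2.14, adjusted p = 0.058), without D4 replicate 2 (-1.78, adjusted p = 0.137) and when libraries were thinned to the smallest (-2.38, adjusted p = 0.219).

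Nr5a1 and Nr6a1 are neighbours on the minus strand of chromosome 2, at chr2:38692656-38714542 and chr2:38723370-38927688 on mm10, with 8827 bases between them. Their courses were compared within libraries, without scaling factors. Where a gene had 0 reads, the size of the ratio depends on the 0.5 reads added and on depth, so that the sizes below are no estimates of a fold. The log2 ratio of Nr6a1 to Nr5a1 reads, with these added to each gene, was -1.46 ± 0.49 at D0 and 3.44 ± 0.97 at D2 (SD, n = 3), a difference of 4.90 with a two-sided exact permutation p of 0.1, the smallest that 3 against 3 libraries allow. The ratio of Nr2f1 to Nr6a1 was 0.10 ± 0.89 at D2 and 4.43 ± 0.69 at D4, again with an exact permutation p of 0.1. Between D4 and D6 it differed by 0.87 (exact permutation p = 0.6), within the spread of the libraries. 3 pairs of genes were compared in this way over 4 pairs of days, and since the smallest p is 0.1 none could pass a correction.

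Nr5a2 encodes LRH-1, known as an activator of Pou5f1 and of liver genes. It had 2 reads over D0, 1 over D2, 3 over D4 and 1 over D6, at or under the floor of 3 reads on every day, so that no difference was detectable at this depth. Esrrb, a factor of self-renewal in mouse embryonic stem cells that also has roles in the inner ear and retina, had 1 read at D0, 0 at D2, 0 at D4 and 3, 4 and 2 at D6. The ratio of D6 to D0 was 11.6, with an exact 95% interval from counting error of 1.61 to 507.6. In the fit without a filter on low counts Esrrb was called at D6 against D0 (log2 fold change 2.60 ± 0.61, adjusted p = 0.000648) and against D4 (2.71 ± 0.59, adjusted p = 0.00177). All 10 Esrrb reads ended within 20 bases of the annotated end on chromosome 12, and 1 of the 10 had a mapping quality of at least 10.

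The genes lay at chr13:78188973-78199757 (Nr2f1), chr7:70351944-70366735 (Nr2f2), chr8:71374123-71381960 (Nr2f6), chr1:136842571-136960448 (Nr5a2) and chr12:86361117-86521628 (Esrrb), with Esrrb alone on the plus strand. 5 members overlap a gene on the opposite strand, and direct RNA reads keep their strand. Ocel1, a coding gene that overlaps Nr2f6, had 55 kept reads. The noncoding neighbours of Nr2f1, Nr2f2, Nr5a1 and Nr6a1 were not analysed here. Sequence shared between members was small. Of the 3184 words of 21 bases in the main Nr2f1 transcript, 79 (2.48%) also occurred in Nr2f2 and 3 in Nr2f6. Nr2f2 and Nr2f6 shared 3 words, and no other pair of members shared any.

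Reads covered part of each transcript. The median aligned length was 1334 bases for Nr2f1, 797.5 for Nr2f2, 955 for Nr2f6, 1080.5 for Nr5a1 and 933 for Nr6a1. The aligner could place Nr2f1 and Nr2f6 on a single transcript, with 98.6% and 98.8% of reads at a mapping quality of at least 10. For Nr2f2 the share was 25.0%, for Nr5a1 1.9% and for Nr6a1 0%. None of the Nr5a1 or Nr6a1 reads assigned to a minor transcript carried more than 20 bases outside the exons of the most-read transcript, and none of the 97 Nr6a1 reads began within 100 bases of a 5′ end. The split between isoforms and the start site that was used cannot be told from the reads of these genes. With that limit, 7 transcripts of 5 members were tested at D6 against D0 and all 7 were called, against 29.2% of 12356 transcripts. Only ENSMUST00000002466.8 of Nr2f6 had 30 reads without the days where it was high. The others reached this minimum through those days, so that the count is a description. Nr2f1 was read almost wholly as ENSMUST00000091458.12, with 433 of 437 reads, 0 over D0 and 233 over D6, at least 99.9-fold higher against the floor (adjusted p = 8.6e-12). The transcripts ENSMUST00000112877.7 (46 reads), ENSMUST00000076275.10 (30) and ENSMUST00000168098.7 (21) of Nr6a1 were each lower in reads at D4 and D6 than at D0.

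Nr2f2 reads did not end where its coding transcript ends in the annotation. The deposited table assigned 47 reads to the coding transcript ENSMUST00000032768.14 and 37 to ENSMUST00000207153.1, which is annotated as a retained intron. None of these 37 reads carried more than 20 bases outside the exons of the coding transcript. Of the 84 reads of both kinds, 76 (90.5%) ended within 20 bases of chr7:70353439, which is 1495 bases before the annotated end, and 6 ended at the annotated end. The motif ATTAAA, a common variant of the polyadenylation signal, starts 26 bases before this position, and 1 of the 20 bases after it is an A. The early end was used on each later day, by 9 of 10 reads at D2, 28 of 31 at D4 and 38 of 41 at D6. At the most used end of Nr2f1, 13 of the next 20 bases of the transcript are A. For the other members, between 71.4% and 100% of reads ended within 20 bases of their most used end, and that end lay at most 20 bases from the annotated end.

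**Figure D3:**
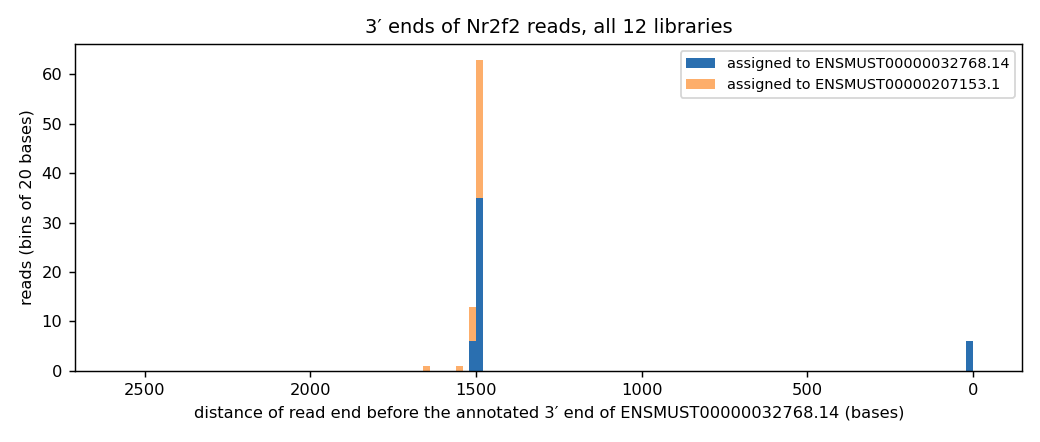
Position at which Nr2f2 reads ended, as the distance in bases before the annotated 3′ end of the coding transcript (bins of 20 bases, all 12 libraries), coloured by the transcript to which the read was assigned. Reads of both transcripts stack at 1495 bases, and 6 reads reach the annotated end.

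Tail length was tested for D6 against D0 and for D6 against D2, where Nr2f6 was the only member with at least 5 reads in each library. Other pairs of days were not tested. Its median tail per library averaged 102.6 ± 17.5 nt on D0, 110.8 ± 5.87 nt on D2 and 104.8 ± 9.76 nt on D6 (SD, n = 3). The difference of D6 against D0 was 2.21 ± 11.2 nt (SE, limma, adjusted p = 0.957, two-sided exact permutation p = 1), with 0.0182% of 5491 genes called and 10.9% at an unadjusted p of at most 0.05. The difference of D6 against D2 was -5.99 ± 7.98 nt (SE, limma, adjusted p = 0.829, two-sided exact permutation p = 0.3), with 0.0299% of 3344 genes called and 9.21% at an unadjusted p of at most 0.05. The unadjusted p of Nr2f6 was 0.85 and 0.48 in the same order (limma), so that 0 of 1 members passed either way. Per library, the median tail of Nr2f1 was 112.2, 112.4 and 75.7 nt at D2, 116.2, 126.2 and 126.0 nt at D4 and 120.3, 137.3 and 144.7 nt at D6, from as few as 4 reads at D2. Without D2 replicate 1, Nr2f1 passed the minimum for a test, and D6 exceeded D2 by 40.0 ± 14.6 nt, which did not pass (limma, adjusted p = 0.539). The median tail of Nr5a1 was 102.0, 102.5 and 105.7 nt at D0, the only day with its reads in every library. Over all kept reads, D0 had a median tail of 103.1 ± 2.67 nt and D6 one of 101.6 ± 1.03 nt (SD, n = 3 library medians). Over the genes tested, the median difference was 5.52 nt for D6 against D0 and 5.94 nt for D6 against D2.

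**Figure D4:**
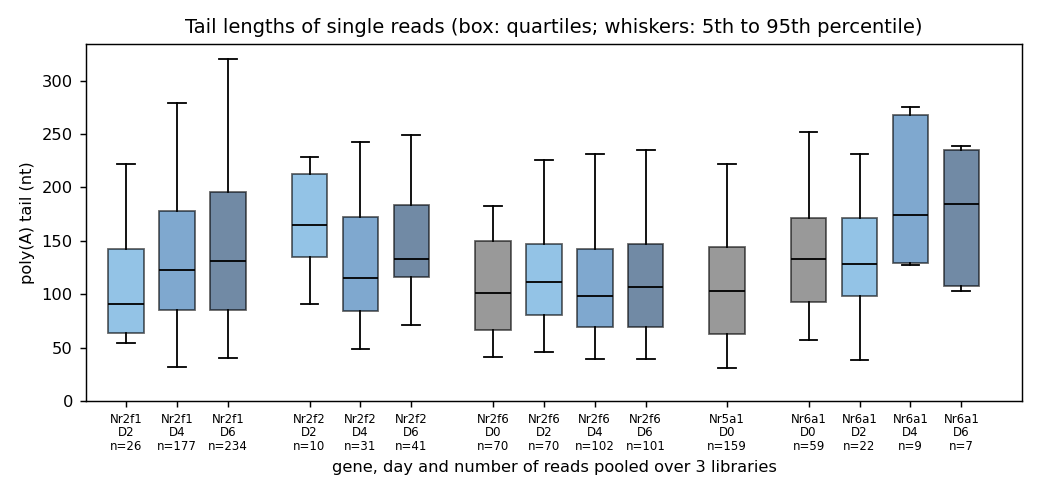
Poly(A) tail length (nt) of single reads, pooled over the 3 libraries of a day, for each gene and day with at least 5 reads (boxes, quartiles and median; whiskers, 5th to 95th percentile). The boxes of Nr2f6 overlap on all 4 days, with pooled medians between 98.1 and 111.8 nt, and the Nr2f1 median for D2, D4 and D6 is 90.6, 122.7 and 131.0 nt.

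The other nuclear receptors give the setting of these changes. Of 41 listed, 29 had reads and 11 were tested. At D6 against D0, 5 rose and 1 fell (19.4% and 18.2% of all genes tested did), with a median log2 fold change of 1.23 beside 0.01 over all genes tested. Esrrg reached the minimum of 30 reads through D6 alone and Ppard through D0 alone. Rarb reached it through D2, D4 and D6, and Thra through D4 and D6, so that the count and median are a description. Rarb, a retinoic acid receptor and known retinoic acid target, rose by 5.57 ± 0.66 on the log2 scale (adjusted p = 2.4e-10), from 2 reads over D0 to 34 over D2, 73 over D4 and 94 over D6. Thra, a thyroid hormone receptor, rose by 3.99 ± 0.56 (adjusted p = 2.1e-08), and Esrrg, a relative of Esrrb, by 3.43 ± 0.66 (adjusted p = 2.4e-05). Esrrg had 3, 0, 4 and 30 reads over D0, D2, D4 and D6, and was called at D6 against D4 (2.66 ± 0.63, adjusted p = 0.00274). Ppard, a receptor for fatty acids, had 34 reads over D0 and 0 over D6, at least 8.81-fold lower against the floor of 3 reads (adjusted p = 1.2e-06). Rxra and Rara, the remaining 2 that rose, are named after their values were seen.

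**Figure D5:**
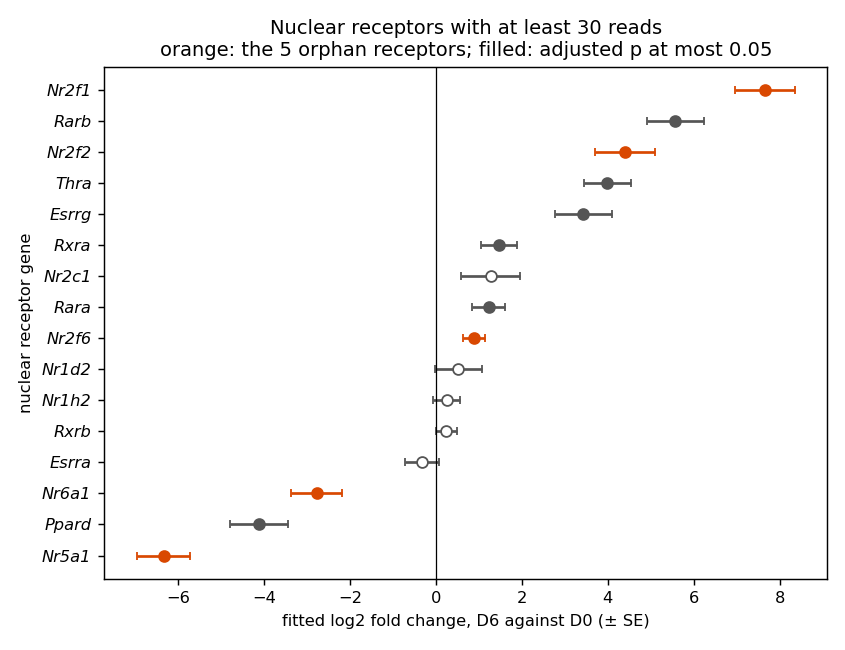
Fitted log2 fold change of D6 against D0 (± SE, 3 libraries a day) for the 16 nuclear receptor genes with at least 30 reads. The 5 orphan receptors (orange) include both ends of the order, Nr2f1 at 7.65 and Nr5a1 at -6.34; filled points have an adjusted p of at most 0.05.

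Partners of the receptors moved in both directions. Of 30 listed corepressors and coactivators, 27 were tested, and 5 rose and 5 fell at D6 against D0, with a median log2 fold change of -0.00065. This is close to the background, where 37.6% of all genes were called, 19.4% higher and 18.2% lower. Among those that rose were Bcl11a, a partner of COUP-TF proteins (2.71 ± 0.44, adjusted p = 6.1e-07), Hdac2, a histone deacetylase (0.61 ± 0.15, adjusted p = 0.000979), and Rcor2, a corepressor of the Kdm1a complex (0.63 ± 0.19, adjusted p = 0.00639). Among those that fell were Dnmt3b, a DNA methyltransferase described as a partner of GCNF (-5.53 ± 0.62, adjusted p = 3.1e-11), Sin3a (-1.71 ± 0.43, adjusted p = 0.00103) and Dnmt3a (-0.77 ± 0.20, adjusted p = 0.00172). Ncoa3 and Rcor1, which rose, and Hdac1 and Tbl1xr1, which fell, are named after their values were seen. Dnmt3b reached the minimum of 30 reads through D0 alone, and Bcl11a, Ncoa3 and Rcor1 through D4 and D6. The counts are therefore a description.

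Targets and companions are given from the same fit. All 9 tested pluripotency genes of 24 listed were lower at D2, D4 and D6 against D0 (6.23%, 12.9% and 18.2% of all genes were called lower). Of these, Pou5f1, Sall4, Utf1, Tdgf1, Lefty1 and Nodal reached the minimum of 30 reads through D0 alone and so had to be lower later, which makes the count a description. Pou5f1 changed by -7.79 ± 0.60 at D2 (adjusted p = 6.5e-17), on the day when Nr5a1 had 1 read and Nr6a1 had 22. Of 17 retinoic acid targets, 14 were tested, and 10 were higher and 1 lower at D2 (4.48% and 6.23% of all genes), and 12 higher and 1 lower at D6 (19.4% and 18.2%). Most genes called higher had fewer than 30 reads over D0. They reached that minimum through the later days, so that these counts too are a description. Crabp1, a retinoic acid-binding protein, rose by 5.63 ± 0.42 at D6 (adjusted p = 1.0e-17). Cyp26b1, which degrades retinoic acid, had no D0 read and 440 reads over D6, a level at least 188.7-fold higher than the floor of 3 reads (adjusted p = 1.2e-15). Tgif1, a homeodomain repressor, fell by 1.62 on the log2 scale (SE 0.27, adjusted p = 1.6e-06).

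The genes most like each member were ranked by Pearson's r of log2 CPM over the 12 libraries. The 12 points share the 4 days, so that high values are common and carry no test. Nr2f1 was nearest to Hoxb8 (r = 0.997), Hoxb5, Neurog1, Hoxb2 and Hoxb3 (r = 0.993). Nr5a1 was nearest to Pou5f1 (r = 0.992), Mif, Aldoa, Pgk1 and Chchd10 (r = 0.978). Nr2f2 was nearest to Hp1bp3 (r = 0.965), Lrig1, Zfp503, Camk2n1 and Irx5. The values were lower for Nr6a1, nearest to Slc16a1 (r = 0.929), Setd5, Gart, Gmps and Hadh, and for Nr2f6, nearest to Clptm1l (r = 0.916), Mettl9, Ptpn1, Sept7 and Gtf2h5. Between members, r was 0.911 for Nr2f1 with Nr2f2, -0.985 for Nr2f1 with Nr5a1 and 0.605 for Nr5a1 with Nr6a1.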

How the data were processed

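Poly(A) RNA of P19 cells was sequenced directly on nanopores, in 12 libraries of 4 days. The authors aligned reads with minimap2 2.20 (version from the submitters' processing notes) to mouse transcripts on mm10 and deposited 1 line per alignment, without a count table. In that deposited table the mapping quality is a score, the barcode confidence a fraction, and the tail length is in nucleotides. A second deposited table, with the authors' log2 fold changes and p-values from DESeq2, was not used.

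Of 6306434 lines, 67 could not be parsed and 289262 had no barcode. Reads tagged PASS and classed as mRNA, without pseudogenes and mitochondrial transcripts, were tallied per gene and library here, 4274320 in all. These tallies were tested with limma-voom (limma 3.58.1, R 4.3.3) on the 12 libraries together, with trimmed-mean factors (30% of ratios, 5% of levels), 0.5 prior reads and at least 30 reads per gene. P-values were adjusted by Benjamini-Hochberg over all genes and called at 0.05. A fitted change against a day at 0 depends on the prior, so bounds against 3 reads per day are given for the genes named. Tails were compared with limma on library medians. The scripts were tested on simulated data. Sequences came from RefSeq and annotation from GENCODE, both on mm10 (GRCm38). The tallies and figures used pandas 2.3.3, numpy 2.4.6, scipy 1.17.1 and matplotlib 3.10.9 under Python 3.11.15.

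All 7 members are named. Of each list, at most 3 higher and 3 lower genes with the smallest adjusted p at D6 are named, and for members with at least 60 reads the 5 genes nearest in pattern (mean of at least 10 reads per library). A gene that this rule names is not reported here. Lists and tests, like the members, were chosen with earlier results of these data known. Alternatives covered scaling, filters, mapping quality, barcode confidence, repeated reads, read class, depth, the model, the replicate number and each library left out. Intervals and floors cover counting error only.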

Additional observations from a re-analysis of the deposited data

Results flagged for a closer look

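Lines outside the kept reads also held reads of Nr2f1 and Nr2f2, with none at D0. Among lines assigned to a library but with a quality tag other than PASS, Nr2f1 had 0, 6, 59 and 44 on D0, D2, D4 and D6. Nr2f2 had 0, 4, 9 and 7 of these lines on the same days. Among PASS lines without an assigned barcode, placed by the day of their run, Nr2f1 had 0, 1, 2 and 10 on the same days. These were picked out because a day after D0 held more than the 3 reads that a count of 0 allows, and no difference was tested. Groups of 3 libraries were not searched for outliers.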

How the results depend on the processing

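Depth limits the rare members, and D2, the shallowest day, has a floor of 5.32 CPM. Unless given here, each count of members called kept its value under the alternatives. Keeping only a mapping quality of at least 10 left 2 members to test, Nr2f1 and Nr2f6. Both were called at D2, D4 and D6 against D0 (2, 2 and 2), 1 at D4 against D2, and 2 member transcripts at D6, in place of 7. Thinned to the smallest library, 4 members were tested, of which 3 each were called at D2, D4 and D6 against D0, and 1 at D4 against D2. With only the libraries of the 2 days compared, 3 members passed the filter at D2 against D0 and 2 were called. At D6 against D4, 1 member was called with library totals, Nr2f1, and 1 without a filter, Esrrb, which also made 6 members called at D6 against D0. With library totals the median of all genes was 0.141 there, in place of 0.031, and 573 of 830 calls were higher, in place of 416 of 777. With a library left out, the members called ranged from 4 to 5 at D4 against D0, from 1 to 2 at D4 against D2 and from 0 to 1 at D6 against D4, and the member transcripts from 5 to 7.

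Signs turned only for values that were not called. Nr6a1 at D2 against D0 was 0.15 with library totals, 0.0045 with median-of-ratios factors and 0.080 with limma-trend, and -0.31 to 0.31 with a library left out. Nr2f6 at D6 against D4 was 0.10, 0.0061 and 0.063 in the same order, 0.040 at a mapping quality of at least 10, 0.0052 with each read once and 0.15 thinned, and -0.14 to 0.12 with a library left out. At D6 against D4, Nr5a1 was 0.081 with library totals and -0.25 to 0.20 with a library left out, and Nr6a1 was 0.13 thinned and -1.0 to 0.36 with a library left out. The Nr2f6 tail difference of D6 against D0 ranged from -6.14 to 11.3 nt with a library left out. The cause of these turns was not tested.

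The replicate number was not taken to pair the libraries, since the deviations of same-numbered libraries correlated at -0.11 to 0.109 and not all over 0.1. As a hint from the data, 8 of 12 correlated best with their own number. With the replicate number as a block the members called were 4, 5, 5, 2 and 0 for D2, D4 and D6 against D0, D4 against D2 and D6 against D4, and Nr2f6 at D6 against D4 was 0.018.

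Over all genes, the calls at D2 against D0 were 1616 without a filter, 634 at a mapping quality of at least 10, 335 thinned and 646 without D2 replicate 2, in place of 997. At D4 against D0, 689 were called thinned, in place of 2359, and at D6 against D0 1217 thinned and 2197 by mapping quality, in place of 3501. At D4 against D2 they were 434 with limma-trend, 114 thinned and 160 without D2 replicate 2, in place of 280. At D6 against D4 they were 378 with limma-trend, 388 by mapping quality, 210 thinned, 474 without D4 replicate 2 and 498 without D6 replicate 2, in place of 777. By mapping quality 2240 transcripts were called, in place of 3612.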

Other observations

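Of receptors outside the rule that named the others, Rarg had 14 reads over D0, 0 over D2, 0 over D4 and 1 over D6, Nr0b1 had 19, 2, 4 and 0, and Nr4a1 had 11, 0, 1 and 3. All stayed below the minimum of 30 reads for the fit, and they are named after their values were seen. Nr0b1 encodes DAX1, a known partner of Nr5a1, and Rarg is a retinoic acid receptor. Lines of Nr5a1 with a quality tag other than PASS numbered 44, 0, 1 and 0 on D0, D2, D4 and D6, and those of Nr6a1 13, 2, 3 and 3.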
